A study of Mus musculus with 185 samples.

Results

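The comparison concerned the hippocampus of mice switched to a high-fat diet (HFD) for 16 h and of mice kept on chow, in 9 of the 185 columns of a count table that covers several brain areas. The mice were male C57BL/6 J from Janvier, 8 weeks old and housed 2 to a cage. 6 mice stayed on chow (Altromin), 6 were given the HFD D12331 and 6 were fasted, and 5 areas of each mouse were sequenced as rRNA-depleted RNA, 1 library per area, from the left or the right hemisphere except for the hypothalamus, which was taken from both. The study asked whether a short change of diet alters gene expression in brain areas tied to body weight by human genetics. The fasted mice enter below as a further group measured in the same way.

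The 5 columns of a mouse carry the same heading, so the hippocampus column was found by expression. In each mouse, among columns with at least 1000000 counts, it was the column with the highest mean log2(CPM + 1), CPM being counts scaled to 1000000 per column, of C1ql2, Lct, Dsp and Iyd, 4 genes that the rule uses as markers of the dentate gyrus. It was accepted where that mean lay at least 1 above the next column of the mouse. This gave a column for chow mice 1, 2, 5 and 6, for HFD mice 14 to 18, and for fasted mice 7, 8, 9, 10 and 12. The accepted means were 3.43, 5.46, 5.32 and 3.72 in the chow mice, 5.25, 6.02, 5.27, 5.50 and 4.79 in the HFD mice, and 5.81, 4.86, 6.02, 3.53 and 5.70 in the fasted mice. The smallest accepted gap was 1.66 in chow mouse 1, and the next was 2.00 in chow mouse 6. Just outside were chow mouse 3, with a mean of 2.39 and a gap of 0.603, and HFD mouse 13, in which 2 columns reached 5.98 and 5.45. Chow mouse 4 and fasted mouse 11, whose hippocampus libraries are marked in the labels as failing alignment, had gaps of 0.319 and 0.494. These values chose the columns, and the 4 genes were left out of every test.

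**Figure D1:**
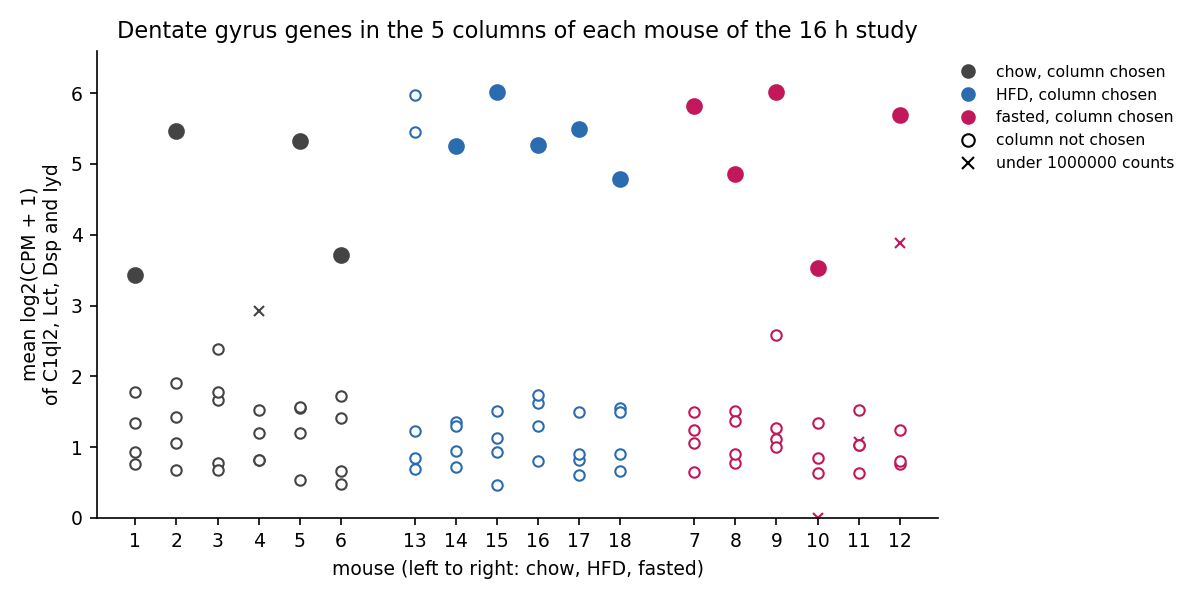
Mean log2(CPM + 1) of the 4 genes of the rule (vertical axis) in the 5 columns of each of the 18 mice (horizontal axis), with accepted columns filled and columns under 1000000 counts as crosses. Accepted columns lie between 3.43 and 6.02, and chow mice 1 and 6 and fasted mouse 10 have the lowest.

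The hippocampus holds the dentate gyrus, whose granule cells send mossy fibres to the pyramidal cells of CA3, which in turn drive CA1 and, through it, the subiculum. It is best known for spatial and episodic memory, and it also carries receptors for circulating signals of energy state such as leptin, insulin and glucagon-like peptide 1. In such bulk tissue, fewer cells of a type and less RNA per cell cannot be told apart.

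Among the 4 genes of the rule, Lct, the gene of lactase, had 15.3, 153, 109.9 and 31.7 CPM in chow mice 1, 2, 5 and 6 and 96.8, 154, 90.1, 145 and 49.5 CPM in HFD mice 14 to 18. C1ql2, which encodes a synaptic organiser of the mossy fibres, had 22.99, 85.6, 81.6 and 21.4 CPM on chow and 79.4, 96.5, 45.7, 82.3 and 56.4 CPM on HFD. Chow mice 1 and 6 had the lowest levels of both genes of all 9 mice. Dsp, the gene of desmoplakin, had 20.9, 131, 105 and 22.8 CPM on chow and 87.4, 151, 68.8, 142 and 53.5 CPM on HFD. Iyd, the gene of iodotyrosine deiodinase, ran from 0.585 to 1.62 CPM on chow and from 1.41 to 6.69 CPM on HFD. It did not follow the other genes of the rule in every mouse. HFD mouse 17 had 1.41 CPM of Iyd with 142 CPM of Dsp, and HFD mouse 16 had 6.41 CPM with 68.8 CPM.

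The accepted columns held 15395448 to 50690303 counts on chow, 9977963 to 28460682 on HFD and 13457670 to 34709456 in fasted mice, with 29255 to 35799 genes detected. The mice were killed between 8.43 and 10.6 h of the clock on chow, between 9.35 and 11.2 h on HFD and between 8.82 and 10.9 h in fasted mice. They were killed in rounds of 1 cage per diet. In every round the chow mice came first, then the fasted and then the HFD mice. Within a round, diet and the order of death cannot be told apart. The chow columns came from 2 cages and the HFD columns from 3. The label gives the RNA concentration of the hippocampus library of chow mouse 6 as 0.

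The columns differed in marker genes of neighbouring areas and of myelin. 10 marker genes of isocortex summed to 289 to 704.5 CPM on chow (median 529), to 196 to 347 CPM on HFD (median 236) and to 194 to 695 CPM in fasted mice (median 298). Their mean log2(CPM + 1) was 5.35 and 5.24 in chow mice 1 and 6, against 4.02 and 4.16 in chow mice 2 and 5 and 3.56 to 4.34 on HFD. Tbr1, a transcription factor of cortical projection neurons, had 124, 50.9, 46.2 and 103 CPM on chow and 44.98, 43.5, 45.2, 40.5 and 36.96 CPM on HFD. Foxp2, a transcription factor of deep cortical layers, had 17.1, 4.52, 4.77 and 17.8 CPM on chow and 5.79, 2.21, 1.81, 2.62 and 2.24 CPM on HFD. For both genes the values of chow mice 1 and 6 lay apart from all others, and those of chow mice 2 and 5 lay within or just above the HFD range. Of the 10 isocortex genes 9 had a fitted level below chow and 1 above, with log2 differences from −2.631 to 0.6035. At an unadjusted p under 0.05 (edgeR) 6 were lower and 0 higher, beside 6.35% and 4.88% of all genes tested. Without chow mice 1 and 6 there were 0 in either direction, beside 306 lower and 326 higher of 23438 genes.

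Oligodendrocyte genes had a lower fitted level on HFD than on chow in all 10 measured members, 9 of them at an unadjusted p under 0.05 and 0 without chow mice 1 and 6. The median log2 difference was −0.60 with all mice and −0.34 without those. Of all genes tested 4.88% were higher and 6.35% lower on HFD at that limit. Without chow mice 1 and 6, which leaves 2 chow mice, 326 of 23438 genes were higher and 306 lower. The summed level of the oligodendrocyte genes was 3227 to 5181 CPM on chow (median 4018), 2194 to 3361 CPM on HFD (median 2700) and 1827 to 6589 CPM in fasted mice (median 3603). Mog, a glycoprotein of the myelin surface, had 55.3, 39.95, 39.2 and 53.8 CPM on chow and 25.01, 37.2, 26.5, 32.8 and 28.9 CPM on HFD, without overlap (log2 difference −0.64 ± 0.23 SE). Opalin, a membrane protein of mature oligodendrocytes, had 33.1, 21.3, 17.6 and 23.7 CPM on chow and 10.7, 18.3, 13.2, 16.6 and 10.4 CPM on HFD, with HFD mouse 15 above chow mouse 5. The fasted mice spanned both groups for Mog, at 23.3 to 73.3 CPM.

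Of the 12 genes of CA2 and CA3, 6 were higher on HFD and 1 lower at an unadjusted p under 0.05, and 0 in either direction without chow mice 1 and 6. The median log2 difference was 0.53 with all mice and 0.39 without those. By fitted level 10 members were above chow and 2 below, beside 11360 and 11216 of 22576 genes tested. Their log2 differences ran from −1.105 to 1.493, and the members given below are all higher ones. Over all genes tested, 4.88% were higher and 6.35% lower with all mice. The fit without chow mice 1 and 6 had 326 higher and 306 lower of 23438 genes. The summed level of the CA2 and CA3 genes was 581 to 810 CPM on chow (median 669), 857 to 1255 CPM on HFD (median 1120) and 446.5 to 1180 CPM in fasted mice (median 948). Rgs14, a signalling protein concentrated in CA2 neurons, had 34.2, 59.98, 63.5 and 36.03 CPM on chow and 65.6, 102, 112, 75.8 and 65.6 CPM on HFD, with every HFD mouse above every chow mouse. Bok, a member of the BCL-2 family and a marker of CA3 here, had 19.2, 15.2, 15.5 and 16.6 CPM on chow and 22.5, 58.9, 86.4, 18.8 and 49.6 CPM on HFD, where mice 15, 16 and 18 were high and mice 14 and 17 were close to chow. Amigo2, a cell adhesion gene of CA2 and CA3, had 4.77, 12.4, 7.19 and 6.22 CPM on chow and 8.05, 20.01, 21.6, 10.7 and 22.6 CPM on HFD, with overlap.

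The summed levels of the other tissue marker lists overlapped between the diets. The 12 further dentate gyrus genes summed to 932 to 2346 CPM on chow and 1378 to 2370 CPM on HFD, the 6 subiculum genes to 130 to 207 CPM and 55.8 to 203 CPM, the 9 astrocyte genes to 7582 to 8229 CPM and 7304 to 8133 CPM, and the 8 microglia genes to 235 to 259 CPM and 230 to 267 CPM. Markers of hypothalamus and of the colliculi, areas sequenced from the same mice, summed to at most 6.21 CPM and 2.92 CPM on either diet. Choroid plexus genes summed to 30.6 to 113 CPM in the 9 columns and to 1307 CPM in fasted mouse 9. Among the remaining lists, at an unadjusted p under 0.05, 1 gene was higher on HFD and 1 lower of 9 of CA1, 1 and 2 of 10 of interneurons, 3 and 1 of 12 of new neurons and progenitors, and 0 and 2 of 6 of the subiculum. 3 of 4 ependymal genes were higher, among them Tmem212 at 0.0779 to 0.322 CPM on chow and 0.174 to 2.38 CPM on HFD, a few reads per library at its lowest. The endothelial, mural, blood and choroid plexus lists had 0 members past that limit with edgeR, oligodendrocyte progenitors and striatum 1 lower each, and thalamus 2 in each direction. For all genes tested the shares past that limit were 4.88% higher and 6.35% lower. Single members did not overlap between the diets in the subiculum (2 below chow), interneurons (1 above and 1 below), oligodendrocyte progenitors (1 below), microglia, choroid plexus and ependyma (1 above each), where 1.85% of all genes tested lay above and 1.99% below. No marker of these lists was at 0 in a whole group.

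**Figure D2:**
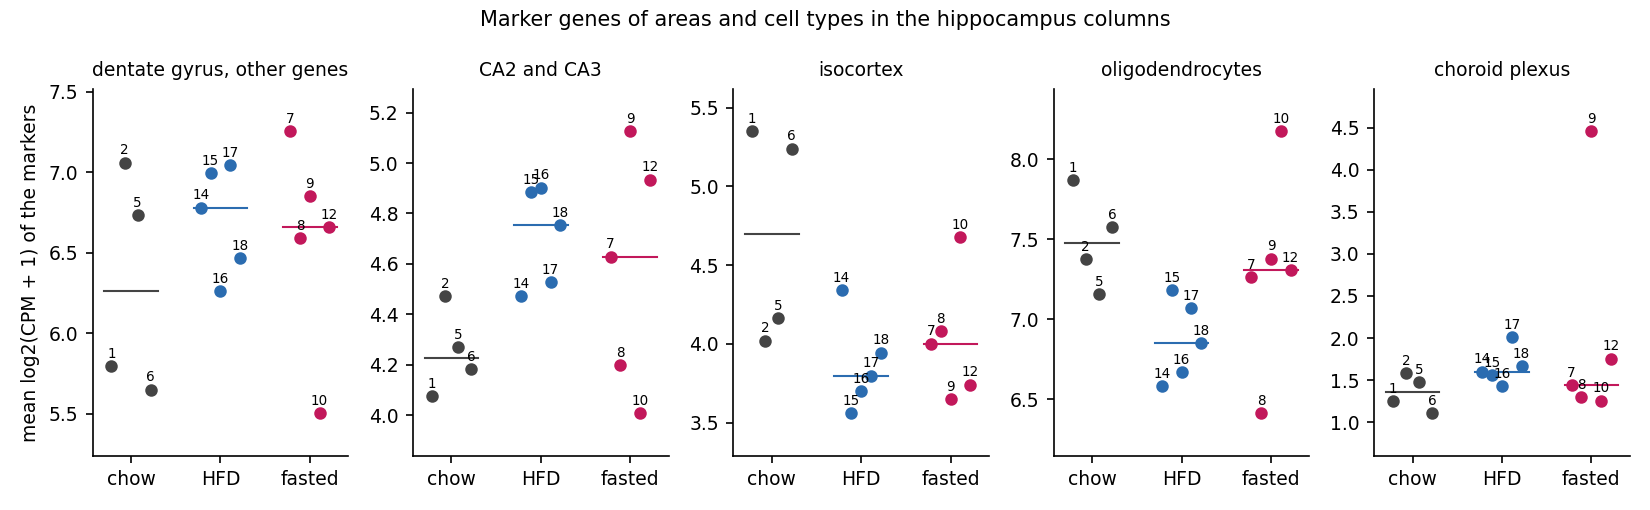
Mean log2(CPM + 1) of the markers of 4 areas or cell types and of choroid plexus (vertical axes, each with its own range) in chow, HFD and fasted mice (horizontal axis), where each numbered point is a mouse and each line a group median. Chow mice 1 and 6 stand above all others for isocortex, at 5.35 and 5.24, and below chow mice 2 and 5 for the dentate gyrus.

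In the main comparison no gene passed. edgeR's quasi-likelihood test with Benjamini-Hochberg adjustment called 0 of 22576 genes (0%) between HFD and chow at an adjusted p under 0.05, and the lowest adjusted p was 0.400. At an unadjusted p under 0.05 there were 1101 genes higher on HFD (4.88%) and 1433 lower (6.35%). DESeq2 also called 0 genes at an adjusted p under 0.05, with 2999 at an unadjusted p under 0.05. At an adjusted p under 0.1 it called 33 of 23734 genes (0.139%), 9 higher and 24 lower on HFD. The median SE of a log2 difference was 0.164 over all genes tested. Without chow mice 1 and 6 the counts at an unadjusted p under 0.05 were 326 higher and 306 lower, and 0 were called. With the isocortex marker mean in the model they were 337 higher and 472 lower.

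All genes named for this comparison are therefore given as values. The 20 genes with the lowest p, 10 in each direction, include 18 without overlap between the 4 chow and 5 HFD mice, 9 above and 9 below. Over all genes tested 417 lay above (1.85%) and 450 below (1.99%). These 20 were picked by the p of the same contrast, so neither their separation nor their fold sizes are independent evidence. With the hemisphere in the model edgeR called 0 genes (2465 at an unadjusted p under 0.05), and with the round of cages 0 (2422).

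Of the 10 leading genes that were higher on HFD, the largest difference was in Glp1r, the receptor for glucagon-like peptide 1 through which that gut hormone and its drug analogues reduce food intake. Glp1r (ENSMUSG00000024027, GRCm39 chr17:31120525-31159765, plus strand) had 0.322, 1.63, 1.305 and 0.655 CPM in chow mice 1, 2, 5 and 6 and 5.79, 2.75, 2.45, 2.304 and 6.73 CPM in HFD mice 14 to 18. Every HFD mouse lay above every chow mouse, mice 14 and 18 most, and the level was low in all 9. The log2 difference was 1.95 ± 0.48 SE (n = 5 and 4; edgeR adjusted p = 0.400), and it was 1.47 without chow mice 1 and 6. The fasted mice had 2.67, 4.92, 2.43, 0.996 and 3.19 CPM, 4 of them above every chow mouse and inside the HFD range.

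Calb2 encodes calretinin, a calcium buffer of mossy cells, of some interneurons and of young granule cells. It had 4.71, 6.404, 4.33 and 5.19 CPM on chow and 21.4, 15.8, 5.22, 7.51 and 26.5 CPM on HFD, a log2 difference of 1.58 ± 0.42 SE. HFD mice 14, 15 and 18 were high and HFD mouse 16 lay within the chow values. Thsd4, a gene of extracellular microfibrils, had 29.2, 52.6, 46.97 and 26.6 CPM on chow and 58.6, 63.7, 107, 63.2 and 97.3 CPM on HFD, without overlap. Tnfaip8l3, whose protein carries phosphoinositides between membranes, had 17.7, 19.9, 20.2 and 19.98 CPM on chow and 28.1, 34.2, 57.4, 21.5 and 50.3 CPM on HFD, where mouse 17 came closest to the chow values.

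Derl1 encodes Derlin-1, part of the channel that removes misfolded proteins from the endoplasmic reticulum, and had 47, 47.5, 50.8 and 42.6 CPM on chow and 58.8, 60.2, 60.9, 53.4 and 60.2 CPM on HFD. Ube2g2, a ubiquitin-conjugating enzyme of the same degradation route, had 21.7, 24.1, 26.2 and 19.8 CPM and 27.4, 29.99, 34, 30.9 and 37.5 CPM. Neither gene overlapped between the diets, with log2 differences of 0.32 ± 0.08 SE and 0.47 ± 0.11 SE. Znrf2, a ubiquitin ligase, had 30.1, 34.3, 36.9 and 30.9 CPM and 40.6, 42.9, 45.2, 40.7 and 47.3 CPM, also without overlap (log2 difference 0.39 ± 0.09 SE). The remaining higher genes were Ifi27, an interferon-inducible gene (0.50 ± 0.12 SE), Gmfb, a regulator of actin branches (0.35 ± 0.09 SE), and Dalrd3, which takes part in tRNA methylation (0.30 ± 0.07 SE), each as a log2 difference.

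Of the genes that were lower on HFD, Cacng7 had the lowest p among genes with a symbol and a mean log2 CPM of at least 1. It encodes an auxiliary subunit of AMPA-type glutamate receptors (ENSMUSG00000069806, GRCm39 chr7:3380237-3416738, plus strand) and had 80.4, 76.4, 71.5 and 80.9 CPM on chow and 63.3, 60.9, 67.3, 63.5 and 59.05 CPM on HFD. The lowest chow mouse lay above the highest HFD mouse, and the log2 difference was −0.30 ± 0.06 SE (n = 5 and 4; edgeR adjusted p = 0.400), which was −0.24 without chow mice 1 and 6. The fasted mice had 68.8, 63.7, 62.3, 72.4 and 65.97 CPM and lay between the diets, with overlap on both sides.

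Stmn4, a neuronal protein that binds tubulin, had 58.7, 55.05, 46.7 and 64.4 CPM on chow and 39.1, 46.3, 39.6, 41.96 and 40.3 CPM on HFD, and the groups were separated by under 1 CPM. H1f4, a linker histone, had 26.9, 22.2, 19.1 and 20.6 CPM on chow and 17.02, 16.7, 12.9, 12.2 and 13.8 CPM on HFD, with a log2 difference of −0.61 ± 0.13 SE. Mlip, named for its binding to lamin A, had 69.9, 59.6, 49.2 and 64.8 CPM on chow and 44.9, 40.4, 39.5, 39.4 and 24.5 CPM on HFD, and HFD mouse 18 was the lowest. Chrdl1, a secreted antagonist of bone morphogenetic proteins that astrocytes release, had 10.4, 6.51, 4.58 and 7.53 CPM on chow and 3.94, 2.45, 3.62, 4.36 and 3.09 CPM on HFD, without overlap (log2 difference −1.03 ± 0.24 SE).

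2 of the lower genes moved most when chow mice 1 and 6 were left out. Igfn1 had 26.6, 1.32, 1.11 and 23.4 CPM on chow and 0.868, 0.478, 1.39, 0.838 and 0.561 CPM on HFD, so that only mice 1 and 6 stood apart. Its log2 difference was −4.00 ± 0.87 SE with all mice, −0.59 without chow mice 1 and 6 and −0.85 with the isocortex marker mean in the model. Dtl, a substrate receptor of a ubiquitin ligase that acts in DNA replication, had 7.61, 2.19, 1.95 and 8.57 CPM on chow and 1.62, 1.43, 1.599, 1.43 and 1.26 CPM on HFD, and its log2 difference went from −1.75 ± 0.40 SE to −0.49 without the same mice. Without them the log2 differences of Thsd4, Stmn4 and Chrdl1 were 0.64, −0.29 and −0.64. The other lower genes were Plcxd1 (−0.77 ± 0.17 SE), Stxbp2, a regulator of vesicle fusion (−0.43 ± 0.10 SE), and Pianp (−0.27 ± 0.06 SE).

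**Figure D3:**
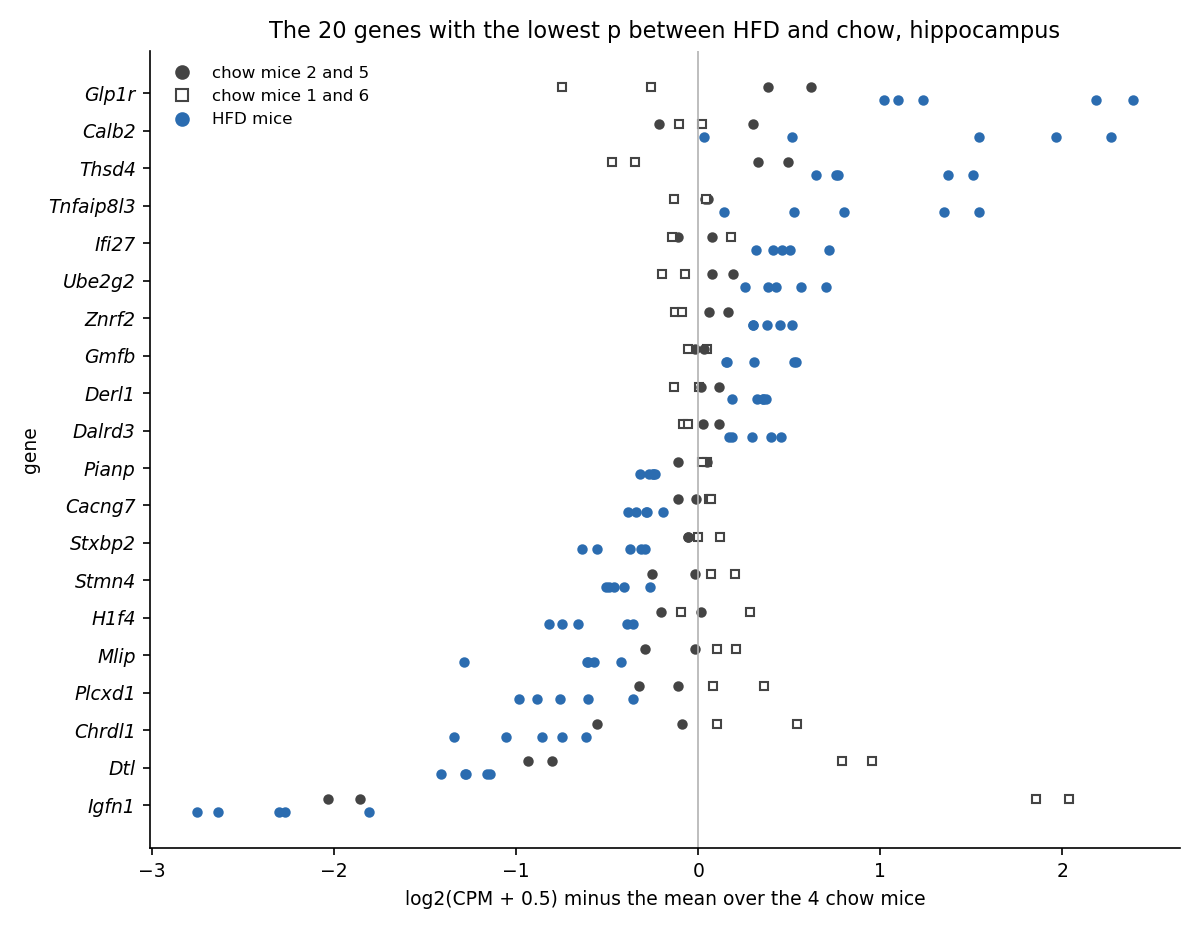
log2(CPM + 0.5) minus the mean of the 4 chow mice (horizontal axis) for the 20 genes with the lowest p (vertical axis), with a point per mouse and open squares for chow mice 1 and 6. For Igfn1 and Dtl chow mice 1 and 6 lie far to the right of all others, and Glp1r separates all 5 HFD mice from all 4 chow mice.

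In the other areas of the same mice, the HFD minus chow difference of the columns added up per mouse was −0.09 ± 0.31 SE for Glp1r, 0.06 ± 0.06 SE for Cacng7, −0.05 ± 0.05 SE for Derl1 and −0.51 ± 0.18 SE for Calb2, on the log2 scale. edgeR called 0 of 29017 genes (0%) in these sums, with 2791 at an unadjusted p under 0.05, and DESeq2 called 2. A direct test of the hippocampus difference minus the difference in the other columns called 0 of 30270 genes (0%), while 2841 had an unadjusted p under 0.05, and the lowest adjusted p was 0.271. Without chow mouse 2 that test called 66 genes, 4 of them with the higher HFD effect in hippocampus. The sums weigh each area by the depth of its column, which differed between mice, and the part of this was not tested.

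Chow mouse 2 also stood apart in the mitochondrial genome, whose genes encode core subunits of the respiratory chain. All 7 of the tested genes among 13 members had an unadjusted p under 0.05 and were lower on HFD, against 6.35% of all genes. mt-Nd2, a subunit of complex I, had 211, 1064, 207 and 182 CPM on chow and 166, 169.5, 152, 187 and 174 CPM on HFD. The value of chow mouse 2 was far above the rest, and the other chow mice lay within or just above the HFD range. Without chow mouse 2, 0 of the 7 genes had an unadjusted p under 0.05 and the median log2 difference went from −0.57 to −0.13. mt-Co1, a subunit of complex IV, was closer between all mice, at 4481 to 6037 CPM on chow and 4136 to 4721 CPM on HFD. Of the 84 tested nuclear genes of oxidative phosphorylation 0 had an unadjusted p under 0.05 (edgeR), with a median log2 difference of 0.03.

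**Figure D4:**
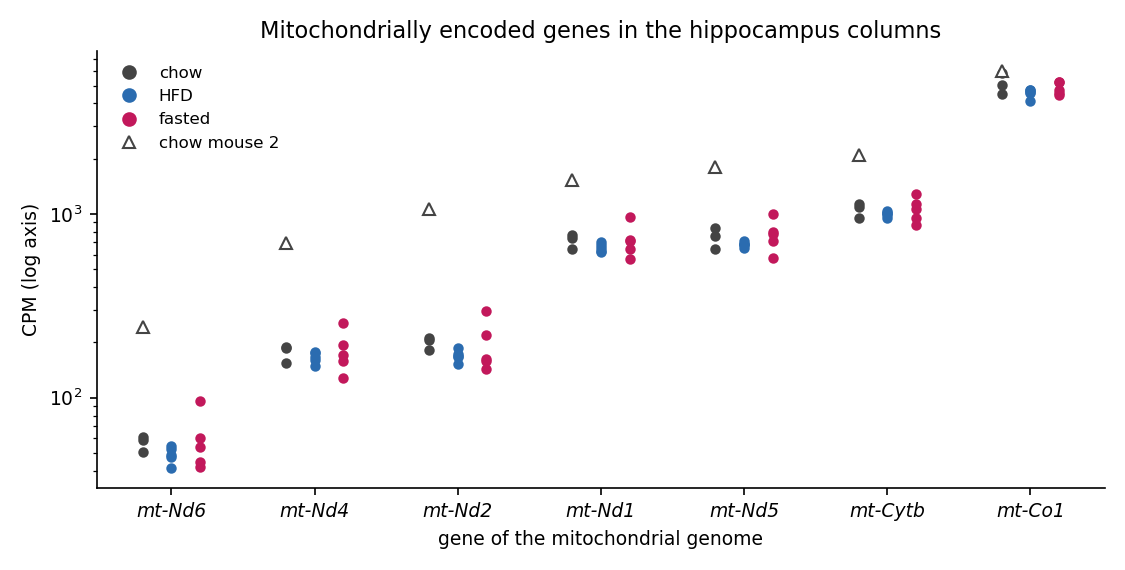
CPM on a log axis (vertical) of the 7 tested genes of the mitochondrial genome (horizontal axis) in chow, HFD and fasted mice, a point per mouse, with chow mouse 2 as a triangle. That mouse is above every other mouse for mt-Nd2, at 1064 CPM against 296 CPM or less, and the remaining chow mice are close to the HFD mice.

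Genes of protein folding were counted in 2 lists. Chaperones of the endoplasmic reticulum, with genes of the unfolded protein response, had 4 of 18 members higher on HFD and 0 lower at an unadjusted p under 0.05, and a median log2 difference of 0.11 beside 0.00 over all genes. Heat shock genes, which encode cytosolic and mitochondrial chaperones, had 7 higher and 1 lower of 18, with a median of 0.16. Over all genes tested, 4.88% were higher and 6.35% lower. Without chow mice 1 and 6 the counts were 0 in either direction for both lists, while the medians were 0.10 and 0.16. That fit had 2 chow mice, and 326 higher and 306 lower of 23438 genes. Without chow mouse 2 the list counts were 9 higher and 0 lower, and 7 higher and 0 lower, beside 1685 and 1999 of 22916 genes. With the clock time of death in the model 9 and 5 were higher, beside 692 of 23096 genes. With the isocortex marker mean in the model 1 and 4 were higher, beside 337 of 23096 genes.

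Pdia6, a disulphide isomerase of the endoplasmic reticulum, had 58.02, 74.3, 48.6 and 49.7 CPM on chow and 80.9, 70.2, 72.8, 61.3 and 80.8 CPM on HFD, a log2 difference of 0.34 ± 0.13 SE. Hspa5, the main chaperone of that compartment, had 154, 186, 108 and 111 CPM on chow and 196, 165, 173, 146 and 215 CPM on HFD (0.36 ± 0.17 SE). In both genes chow mouse 2 was as high as the HFD mice and the other chow mice were lower, apart from mouse 1 for Hspa5, which was above HFD mouse 17. Hspa1b, an inducible cytosolic chaperone, had 3.03, 4.22, 2.86 and 1.53 CPM on chow and 4.4, 4.96, 6.71, 4.96 and 6.66 CPM on HFD, without overlap (0.91 ± 0.32 SE). Hspa1b has a near-identical copy, Hspa1a, and reads of the pair may be divided between them. Hsph1, which exchanges nucleotides on such chaperones, had 186, 211, 164 and 188 CPM on chow and 197, 226, 258, 201 and 288 CPM on HFD, with overlap. Cryab, a small heat shock protein abundant in oligodendrocytes, was the member that was lower, at 29.8, 31.5, 18.8 and 27.02 CPM and 17.5, 24.7, 18.1, 17.04 and 21.7 CPM.

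The fasted mice allow a second comparison, which shares the HFD libraries with the first and no chow library. HFD minus fasted gave 0 of 22576 genes called by edgeR (0%), with a lowest adjusted p of 0.232, and at an unadjusted p under 0.05 there were 607 genes higher (2.69%) and 679 lower (3.01%). DESeq2 called 25 of 14264 genes (0.175%) at an adjusted p under 0.05, 15 higher and 10 lower on HFD.

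In this comparison 12 of the 18 endoplasmic reticulum genes and 10 of the 18 heat shock genes were higher on HFD at an unadjusted p under 0.05, and 0 of either list were lower. The median log2 differences were 0.30 and 0.22, beside −9.16e-05 over all genes, and 17 members of each list were above 0. Without fasted mice 9 and 10, which stand apart in choroid plexus and in isocortex and oligodendrocyte markers, the counts were 9 and 5. Over all genes tested, 2.69% were higher with all mice and 432 of 22783 without those mice. Of the 10 oligodendrocyte markers, 5 were lower on HFD than in fasted mice and 0 without those mice, and the part of tissue makeup in the counts was otherwise not tested. Hspa5 had 196, 165, 173, 146 and 215 CPM on HFD and 138, 139, 102, 100.1 and 101 CPM in fasted mice, without overlap, and its log2 difference was 0.62 ± 0.16 SE (n = 5 and 5; edgeR adjusted p = 0.545). Over all genes tested 158 lay above the fasted mice in every HFD mouse (0.7%) and 153 below (0.678%). Of the lists, 4 of 18 endoplasmic reticulum genes and 2 of 18 heat shock genes lay above in this way, and 0 below. The members named here are among those without overlap and were chosen after their values were seen. Sdf2l1, a helper of the chaperone encoded by Hspa5, had 6.83, 6.93, 6.501, 7.16 and 7.36 CPM on HFD and 5.07, 3.82, 5.09, 2.77 and 3.85 CPM in fasted mice, with every HFD mouse above every fasted mouse (0.75 ± 0.19 SE; DESeq2 adjusted p = 0.0497). Pdia6 had 57.4, 56.9, 46.03, 46.2 and 40.95 CPM in fasted mice, all below the HFD mice (0.56 ± 0.13 SE; DESeq2 adjusted p = 0.0409). Chordc1, a cochaperone of HSP90, had 87.01, 81.7, 87.7, 86.2 and 103 CPM on HFD and 73.01, 74.7, 67.9, 69.8 and 67.03 CPM in fasted mice (0.34 ± 0.08 SE; DESeq2 adjusted p = 0.0497), again without overlap. With edgeR the adjusted p of Sdf2l1, Pdia6 and Chordc1 was 0.509, 0.417 and 0.454. DESeq2 with its filter set for a limit of 0.1 gave adjusted p of 0.0698, 0.0537 and 0.0698.

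Set beside fasted minus chow, the same lists had median log2 differences of −0.21 and −0.11, with 0 higher and 3 and 2 lower at an unadjusted p under 0.05. edgeR called 0 of 22576 genes (0%) between fasted and chow mice, and DESeq2 called 0. At an unadjusted p under 0.05 edgeR had 1138 genes, 517 higher and 621 lower in fasted mice. Relative to the chow mean, the mean log2 level of the endoplasmic reticulum list was −0.16 to 0.22 in the chow mice, −0.02 to 0.24 on HFD and −0.25 to −0.05 in fasted mice. In the other columns of the same mice the 2 lists had median HFD minus chow differences of 0.18 and 0.17, with 17 of 18 members of each above 0. Over all genes 11268 of 22528 were above 0 there, with a median of 4.456e-05. Such a share was not particular to chaperones: 8 of 8 microglia and 9 of 10 isocortex genes were above 0, and 0 of 10 oligodendrocyte genes.

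**Figure D5:**
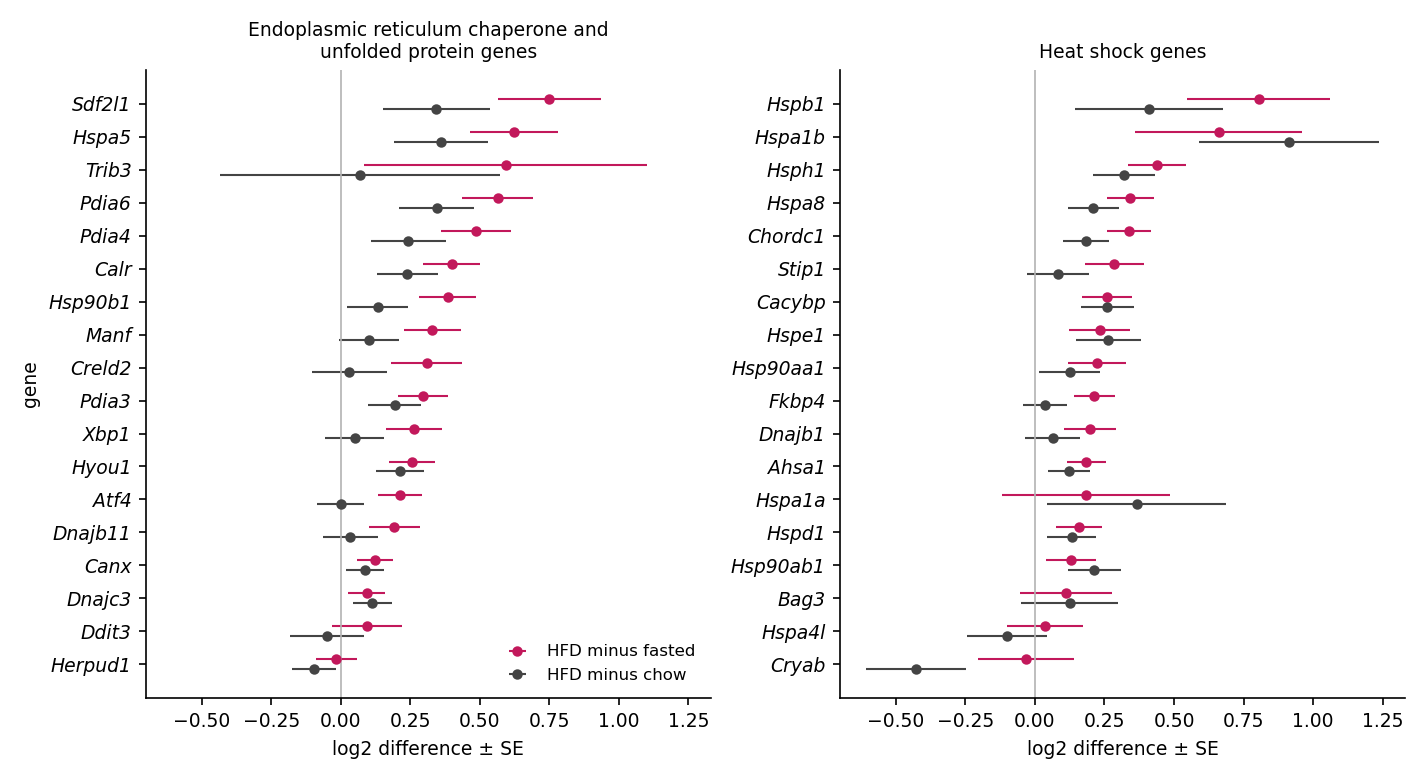
log2 difference with its SE (horizontal axes) of the 18 endoplasmic reticulum genes and the 18 heat shock genes (vertical axes) for HFD minus fasted and HFD minus chow. 17 of 18 genes in each list lie above 0 for HFD minus fasted, and 15 and 16 lie above 0 for HFD minus chow.

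The 5 genes with the lowest DESeq2 adjusted p in each direction between HFD and fasted mice were of other kinds. Itga10, an integrin that binds collagen, had 6.02, 4.78, 5.65, 5.41 and 7.64 CPM on HFD and 3.26, 3.399, 3.22, 3.49 and 2.21 CPM in fasted mice, without overlap (0.93 ± 0.16 SE; DESeq2 adjusted p = 0.00112). Its edgeR adjusted p was 0.232. Dok3, an adaptor of immune receptor signalling, had 12.2 to 19.01 CPM and 6.73 to 9.71 CPM, and Mkks, a chaperonin-like gene of the Bardet-Biedl group of ciliopathies, 10.8 to 16.2 CPM and 5.67 to 8.37 CPM. Wdcp had 15.9 to 19.5 CPM and 12.3 to 15.01 CPM, and Pex6, needed for protein import into peroxisomes, 65.1 to 74.1 CPM and 52.9 to 60.8 CPM. All 5 were higher in every HFD mouse than in every fasted mouse, but they were picked by the p of this contrast, so their separation is no independent evidence.

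Lower on HFD was Cirbp, an RNA-binding protein induced by cold, at 32.4, 35.2, 29.2, 31.7 and 20.6 CPM on HFD and 44.5, 41.03, 52.02, 41.9 and 53.96 CPM in fasted mice (−0.65 ± 0.14 SE; DESeq2 adjusted p = 0.0184), without overlap. With edgeR the adjusted p was 0.376 for Cirbp and 0.392 for the next gene, Hif3a. Hif3a, a hypoxia-inducible factor that also responds to glucocorticoids, had 6.43, 5.38, 6.18, 5.83 and 4.49 CPM on HFD and 9.32, 7.83, 7.41, 13.3 and 17.1 CPM in fasted mice (−0.97 ± 0.21 SE; DESeq2 adjusted p = 0.0211), and the chow mice, at 4.96 to 7.26 CPM, were close to the HFD mice. Pik3ip1, an inhibitor of phosphoinositide 3-kinase, had 23.2 to 27.7 CPM on HFD and 29.9 to 34.8 CPM in fasted mice, Amy1, an amylase, 6.82 to 10.1 CPM and 10.4 to 15.4 CPM, and Etnppl, an astrocyte enzyme of phosphoethanolamine breakdown, 3.84 to 8.77 CPM and 7.34 to 22.8 CPM. Of these 5 genes Etnppl was the one whose groups overlapped. They too were picked by the p of this contrast, so their separation is no independent evidence.

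Glucocorticoid-responsive genes pointed to no single direction between HFD and chow, with 3 higher and 2 lower of 18 tested at an unadjusted p under 0.05. At that limit 4.88% of all genes tested were higher and 6.35% lower. Fkbp5, a cochaperone that dampens the glucocorticoid receptor, had 31.01, 55.05, 55.2 and 30.9 CPM on chow and 55.4, 69.8, 58.2, 67.4 and 62.3 CPM on HFD, and the lowest HFD mouse lay just above the 2 highest chow mice. Between HFD and fasted mice 0 of the 18 were higher and 5 lower, among them Map3k6 at 1.49 to 2.51 CPM on HFD and 2.73 to 5.19 CPM in fasted mice. In that comparison 2.69% of all genes were higher and 3.01% lower. Without fasted mice 9 and 10, 0 of the 18 were higher and 3 lower, beside 432 and 435 of 22783 genes. Circadian clock genes had 0 higher and 7 lower of 18 on HFD against chow, beside 4.88% and 6.35% of all genes. Nr1d1, which encodes the repressor REV-ERBα, had 60.7, 57.8, 69.2 and 94.7 CPM on chow and 53.4, 47.4, 55.3, 62.5 and 55.8 CPM on HFD, and Dbp, an output gene of the clock, 29.1, 26.99, 36.1 and 50.4 CPM and 24.4, 24.9, 29.8, 31.8 and 22.6 CPM. For both genes chow mouse 6 was the highest and the other chow mice overlapped the HFD mice or lay close to them. Rorb, a clock gene that is also on the isocortex list, had 89.7, 69.9, 64.5 and 112 CPM on chow and 57.3, 51.4, 54.99, 58.1 and 57.6 CPM on HFD. With the clock time of death in the model 5 clock genes were lower, beside 1069 of 23096 genes. Without chow mice 1 and 6, which leaves 2 chow mice, there were 0 in either direction, while the median log2 difference of the list was −0.13, against −0.11 with all mice. Over all genes that fit had 326 higher and 306 lower of 23438.

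Receptors for appetite and metabolic hormones had 3 higher and 2 lower of 23 at an unadjusted p under 0.05, where 4.88% of all genes were higher and 6.35% lower. Beside Glp1r, Mc4r, the melanocortin receptor of the appetite circuit, had 1.61, 3.66, 3.74 and 1.58 CPM on chow and 3.13, 5.496, 4.26, 5.24 and 6.31 CPM on HFD, with HFD mouse 14 below chow mice 2 and 5. Cckbr, a receptor for cholecystokinin, had 39.2, 4.32, 6.08 and 39.2 CPM on chow and 7.12, 6.21, 7.14, 2.72 and 5.12 CPM on HFD. Chow mice 1 and 6 alone carried the Cckbr difference, whose log2 value was −1.98 ± 0.57 SE with all mice and 0.08 without them. Thrb, a thyroid hormone receptor, had 109.9, 68.6, 75.1 and 96.8 CPM and 67.4, 47.9, 51.05, 65.98 and 59.7 CPM, and the groups met without overlap.

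Genes of lipid metabolism were counted in 3 lists, and of all genes tested 4.88% were higher and 6.35% lower at an unadjusted p under 0.05. Of 22 sterol synthesis and uptake genes 20 had a fitted level below chow, beside 11216 of 22576 genes tested, with a median log2 difference of −0.21 and 0 higher and 1 lower at an unadjusted p under 0.05. The median was 0.04 without chow mice 1 and 6. Without chow mouse 2 it was −0.31, and 8 of the 22 were lower at that limit, beside 1999 of 22916 genes. Insig1, a brake on sterol synthesis, had 70.5, 42.5, 53.9 and 83.9 CPM on chow and 45.7, 43.5, 55.8, 41.4 and 48.7 CPM on HFD, with chow mice 1 and 6 highest. Fatty acid synthesis genes had 0 higher and 1 lower of 15. That member was Scd1, the stearoyl-CoA desaturase, at 195, 131, 125 and 158 CPM on chow and 108, 119, 114, 111 and 118 CPM on HFD, without overlap. Fatty acid oxidation and ketone body genes had 2 higher and 1 lower of 27, with a median log2 difference of 0.01.

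Among transmitter receptors, ionotropic glutamate receptor genes had 1 higher and 2 lower of 15, and 3 of 12 GABA-A receptor genes were higher, at an unadjusted p under 0.05. The shares over all genes were 4.88% higher and 6.35% lower. Grik4, a kainate receptor subunit abundant in CA3, had 33.01, 46.05, 38.5 and 31.7 CPM on chow and 57.03, 71.03, 97.6, 38.5 and 111 CPM on HFD, and HFD mice 15, 16 and 18 were the highest, as they were for Bok. Gria4, an AMPA receptor subunit, had 126, 54.3, 63.04 and 137 CPM on chow and 71.4, 49.6, 65.4, 49.6 and 76.5 CPM on HFD. For Gria4 chow mice 1 and 6 were the highest, and its log2 difference was −0.61 ± 0.27 SE with all mice and 0.09 without them. Gabra5, an extrasynaptic GABA-A receptor subunit of the hippocampus, had 56.4, 124, 117 and 76.4 CPM and 112, 141, 178, 136 and 121 CPM, where chow mice 1 and 6 were the lowest.

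Activity-regulated genes had 2 higher and 1 lower of 25, beside 4.88% and 6.35% of all genes at an unadjusted p under 0.05. Nr4a3, a nuclear receptor induced by neuronal activity, had 40.1, 75.8, 55.9 and 49.03 CPM on chow and 86.6, 84.05, 148, 68.1 and 107 CPM on HFD, with HFD mouse 17 below chow mouse 2. Ptgs2, the inducible cyclooxygenase, had 11.02, 25.1, 16.2 and 9.66 CPM and 22.1, 33.3, 47.7, 21.6 and 26.2 CPM. The lower member was Ier5, at 49.8, 34.2, 44.5 and 65.35 CPM and 38.3, 35.5, 33.7, 39.2 and 25.9 CPM (log2 difference −0.49 ± 0.21 SE). By fitted level 9 of the 25 were above chow and 16 below, beside 11360 and 11216 of 22576 genes, with a median log2 difference of −0.06. Neuropeptide genes had 0 higher and 3 lower of 19, and inflammation and gliosis genes 2 higher and 1 lower of the 14 tested of 20. Gfap, the intermediate filament of astrocytes, had 166, 294, 244 and 175 CPM on chow and 305, 346, 270.2, 284 and 295 CPM on HFD, and chow mice 1 and 6 were again the lowest. Socs3, of the same list, went the other way, with a log2 difference of −0.95. Cytosolic ribosomal protein genes had 2 higher and 1 lower of 81, small structured noncoding RNAs 0 of 4 and nuclear retained long noncoding RNAs 0 of 10 at an unadjusted p under 0.05 (edgeR), with median log2 differences of 0.02, −0.29 and −0.17.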

How the data were processed

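Bulk RNA of mouse brain areas was sequenced, and only the 90 columns of the 16 h study entered here. The 95 columns of the 24 h study were not used. The authors mapped reads to GRCm39 with STAR 2.7.3a and deposited the raw gene counts (57010 Ensembl genes), without normalization. The annotation release and the strand setting are not given in the sources used here, so antisense and overlapping genes are uncertain. Symbols came from GENCODE vM39 (56310 genes). The columns of a mouse were assigned by their heading and the hippocampus column by the marker rule, not by order. The same deposited sample table gave hemisphere, cage and times. No pair of accepted columns was identical, and all rows name a gene.

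Genes were tested with edgeR (version 4.0.16, R version 4.3.3: filterByExpr, TMM, glmQLFit and glmQLFTest, diet as the only term, chow, HFD and fasted mice in 1 fit), with Benjamini-Hochberg adjustment over all genes. The scripts were tested on simulated data. CPM of genes were scaled by TMM, and CPM of the rule genes and of summed marker lists by the column total. The other columns of a mouse with at least 1000000 counts were added up as raw counts for the comparison with the other sequenced areas. A deeper column weighs more in such a sum. In chow mouse 2, 1 of these columns held 45657731 counts and the others 15237463 to 19749563. The mix of areas thus differed between mice, and its part was not tested. Alternatives used DESeq2 1.42.0, limma 3.58.1 and sva 3.50.0, other size factors, no filter, covariates, cage sums and mice left out. Depth per column, given in the report, limits genes of low level most, and the reads carry no molecular identifiers.

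The columns, gene lists and tests were chosen with earlier results of these data known. As no gene was called, the named genes are the 10 of lowest p in each direction that have a symbol and reach a mean log2 CPM of 1, and up to 4 of lowest p per list. Other list members, markers and the genes named between HFD and fasted mice (5 of lowest DESeq2 adjusted p per direction, and chaperones) were chosen after their values were seen. The result of 1 listed gene is not reported here. Mice are the replicates, and the 2 mice of a cage were treated as separate (correlation within cages −0.173 in limma).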

Additional observations from a re-analysis of the deposited data

Results flagged for a closer look

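In 258 groups of 4 or 5 mice, each for a named gene or a summed marker list, 19 held a mouse whose gap to its nearest neighbour passed Dixon's limit, where chance gives about 1 in 20 groups, or 12.9. Fasted mouse 10 accounted for 5 of them. In this mouse the highest level of its group was seen for Nr1d2 (137.7 CPM), Cort (1.85 CPM), Cckbr (13.4 CPM), Socs3 (2.56 CPM) and the summed isocortex markers (695 CPM). Chow mouse 2 accounted for 4, all genes of the mitochondrial genome that encode subunits of complex I, with mt-Nd2 at 1064 CPM, mt-Nd4 at 691.5 CPM, mt-Nd5 at 1814 CPM and mt-Nd6 at 242.5 CPM. Fasted mouse 9 held the choroid plexus markers at 1307 CPM and the colliculi markers at 9.56 CPM, each summed over the list.

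The other mice far from their group were single ones. Of the HFD mice, mouse 17 had Derl1 at 53.4 CPM, below the rest, and Nr1d2 at 106 CPM, above the rest; mouse 18 had Mlip at 24.5 CPM and Gabra2 at 151 CPM; and mouse 14 had Socs3 at 1.91 CPM. Chow mouse 1 had Tnfaip8l3 at 17.7 CPM, with the next chow mouse at 19.9 CPM. Of the fasted mice, mouse 8 had Calb2 at 18.0 CPM and mouse 7 had H1f4 at 21.3 CPM.

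HFD mouse 13, which gave no hippocampus column, held a second column with dentate gyrus genes. Its mean log2(CPM + 1) was 5.45 there and 5.98 in its first column, while the highest second column of the other mice was at 2.58.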

How the results depend on the processing

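HFD against chow in the hippocampus gave 0 called genes in 25 of 26 alternatives, and 33 (9 higher) with DESeq2 at an adjusted p under 0.1. The count at an unadjusted p under 0.05 ran from 632 to 3523 over 15 other settings of edgeR or limma and from 1254 to 3684 over 9 fits that each left out a mouse. HFD against fasted gave 25 genes with DESeq2 at an adjusted p under 0.05 and 35 at 0.1, and the other columns gave 2 with DESeq2 at 0.05. The difference between hippocampus and other columns gave 0 to 66 genes when a mouse was left out, with 66 without chow mouse 2. The cause of these differences was not tested. Size factors of the median-ratio kind moved the median log2 difference by 0.00368.

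Of 2024 values of 81 named genes 18 changed sign, and 0 of the 500 of the leading genes or of the 315 of HFD against fasted did. The leading genes were picked by the p of the same contrast. Those of HFD against fasted were picked by p or after their values were seen. The alternatives reuse largely the same mice, so a kept sign is no independent evidence. With the isocortex marker mean as a covariate the log2 difference was 0.0613 for Insig1, 0.0461 for Ppargc1a, 0.245 for Gria4, −0.0203 for Gabra5, 0.216 for Adcyap1, 0.159 for Vip, 0.0231 for Cckbr, −0.0406 for Serpina3n and 0.0818 for Npas2. With 1 surrogate variable it was 0.0127 for Insig1, 0.00972 for Ppargc1a, 0.119 for Gria4, 0.0824 for Adcyap1, 0.0880 for Vip and 0.0138 for Npas2. Without chow mice 1 and 6, chosen after seeing the data, it was 0.0863 for Gria4 and 0.0778 for Cckbr. With all 18 mice and no minimum of counts or gap it was −0.17 for Hyou1.

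The test of hippocampus against the other columns was paired, with the mouse as a block. Between diets no analysis paired by mouse was possible, because each mouse was on 1 diet. The round of cages, which the diets share, was used as a covariate instead, with 0 genes called and 2422 at an unadjusted p under 0.05. With 4 chow mice, 2 of them high in isocortex markers, and a median SE of 0.164 in log2, small differences were not detectable. The isocortex covariate, the fits without chow mice 1 and 6 and the one with HFD mouse 13 and chow mouse 3 added were chosen after seeing the data.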
